A study of Oryza sativa with 6 samples.

Results

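Among 38042 rice loci, 99 were at least 16-fold higher in S-type lateral roots than in nodal roots of both cultivars. They were chosen from the S-type and nodal libraries alone: (S-type value + 1)/(nodal value + 1) had to reach 16 in Mulai and in IR29, with an S-type value of at least 100 in each. The L-type libraries took no part in the choice. The values are scaled counts, that is fragment counts per locus multiplied by 1 factor per library. Because the choice fixed the nodal and S-type ends, the contrast between them is given as a description only. The loci carry assembly identifiers, none of which is paired with a gene name, so no function can be given for any of them.

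Oryza sativa was sampled as the cultivar Mulai, labelled salinity tolerant, and as IR29, labelled salinity sensitive. From each cultivar came 1 library of nodal roots, 1 of S-type and 1 of L-type lateral roots, 6 libraries in all. All were grown at 30 °C by day and 25 °C by night with 12 hours each, and the labels name no salt treatment. They do not give the age of the roots, the number of plants or whether branches were left on the L-type roots. Without gene names the root types could not be checked against marker genes.

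Nodal roots, also called crown roots, arise from the stem nodes and form the main axes of the mature rice root system. They bear lateral roots of different size. S-type laterals are thin, short and do not branch, and they make up much of the fine root surface. L-type laterals are thicker, keep growing and carry laterals of their own, so in form they lie between S-type laterals and main axes.

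The libraries held between 3891153 reads (IR29 L-type) and 7904454 reads (Mulai nodal), recovered from the scaled counts. The IR29 libraries were the shallower ones throughout. One library, IR29 L-type, stood apart with a score of -96.5 on the third principal component (11.3% of variance, 20316 tested loci), where the remaining scores ran from -17.1 to 71.8. Every IR29 L-type value, every count over both cultivars in L-type roots and every comparison of the cultivars in L-type roots rests on this library, and the Mulai values stand without it.

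The 99 loci together took 3.79% of all S-type reads in Mulai (3.77 to 3.80, exact 95% binomial interval) and 3.18% of those in IR29 (3.16 to 3.20). In nodal roots their share was 0.0912% in Mulai (0.0891 to 0.0933) and 0.0998% in IR29 (0.0969 to 0.103). In L-type roots, which the choice did not use, the share was 0.698% in Mulai (0.692 to 0.705) and 0.707% in IR29 (0.699 to 0.716). The L-type shares of the cultivars thus lay close together, well above the nodal and well below the S-type shares. These intervals cover counting error only. In bulk roots, fewer cells that hold a transcript and less of it per cell cannot be told apart.

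**Figure D1:**
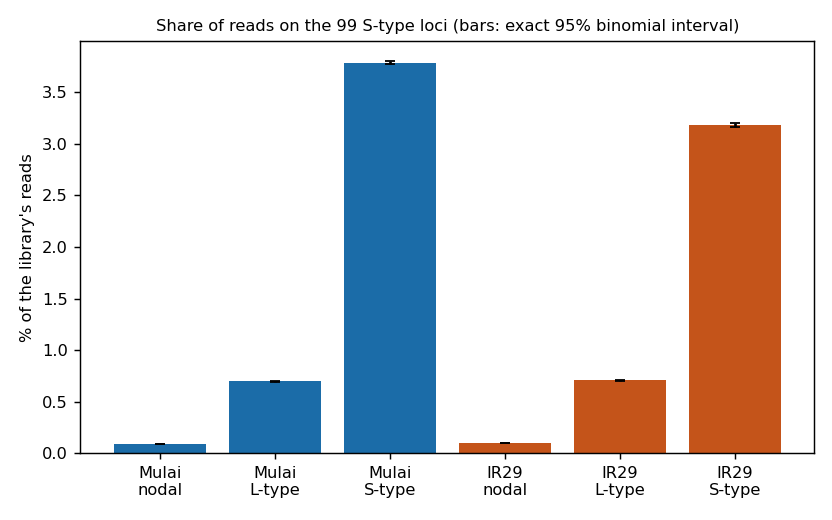
Share of each library's reads that fell on the 99 loci (y axis, %), 1 bar per library, with the exact 95% binomial interval as error bar. Both L-type bars stand near 0.70%, between nodal bars under 0.103% and S-type bars over 3.16%.

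The typical locus was scarcely read in nodal roots and plainly present in L-type roots. The median scaled count over the 99 loci was 14.4 in Mulai nodal, 148 in Mulai L-type and 535 in Mulai S-type roots. In IR29 the medians were 10.4, 104 and 753 in the same order. A value of at least 100 was reached by 7 of the loci in each nodal library, by 62 in Mulai L-type and by 52 in IR29 L-type roots. Nodal roots yielded reads for 97 of the 99 loci in Mulai and 91 in IR29, and L-type roots for 99 and 97. All 99 passed the filter on low values, as an S-type value of 100 in both cultivars guaranteed.

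A few very abundant loci carried much of the signal. The 3 highest loci made up 47.1% of the summed value of the 99 in Mulai S-type and 39.7% in IR29 S-type roots. Among the 100 most abundant loci of a library, 9 belonged to the set in Mulai S-type and 8 in IR29 S-type roots, against 1 in Mulai L-type, 2 in IR29 L-type and 0 in either nodal library. The locus with the highest S-type level (geometric mean of both cultivars) had scaled counts of 1379, 8329 and 24729 in Mulai nodal, L-type and S-type roots and of 2325, 5859 and 43696 in IR29. It was thus well expressed in every library, and its L-type level lay between the others in both cultivars. The locus ranked 3 by S-type level had 519.9, 2993 and 16682 in Mulai and 319.4, 3394 and 23796 in IR29, with the same order of root types. The lowest member by S-type value reached 104 in Mulai and 107 in IR29.

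**Figure D2:**
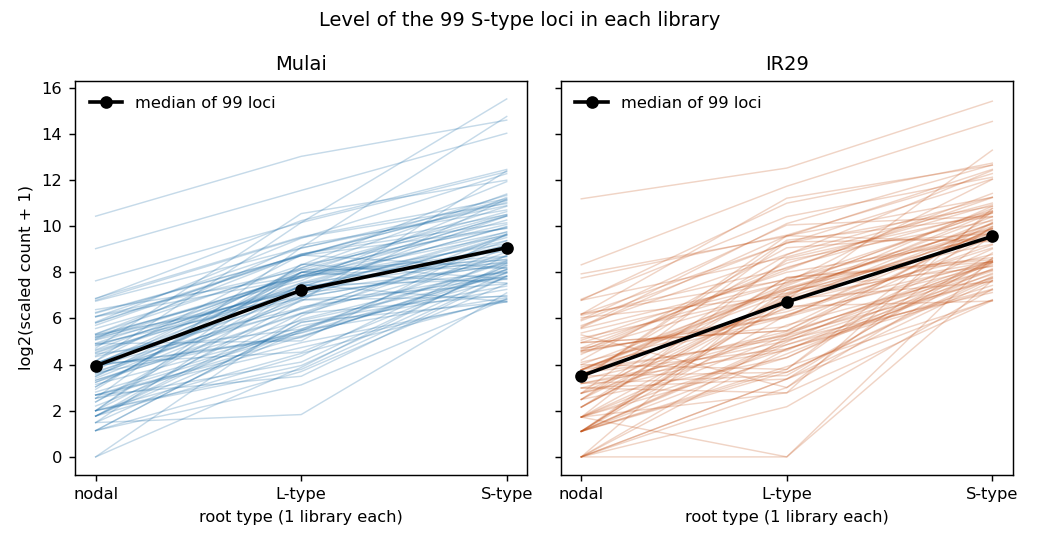
Level of each of the 99 loci (thin lines) in the nodal, L-type and S-type library of Mulai (left) and IR29 (right), as log2(scaled count + 1), with the median as a black line. The median rises through L-type roots in both panels, with scaled counts of 14.4, 148 and 535 in Mulai and of 10.4, 104 and 753 in IR29. 2 lines in the IR29 panel touch 0 in L-type roots.

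The edge of the set was gradual. The member closest to the fold limit had a smaller fold of 16.1, and the nearest locus outside had 15.99. In 27 of the 99 loci the smaller of the folds lay between 16 and 20, and 50 further loci with sufficient S-type values had a smaller fold between 12 and 16. Another 49 loci met the fold in both cultivars but had an S-type value under 100 in at least 1 of them. The nearest of these had 99.3 in IR29.

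Applied to 1 cultivar at a time, the rule chose 163 of all 38042 loci in Mulai and 432 of 38042 in IR29. The 99 common loci are 60.7% of the Mulai list and 22.9% of the IR29 list. Of the 163 loci chosen in Mulai alone, 109 were also at least 16-fold higher in S-type than in nodal roots of IR29, 40 were between 4-fold and 16-fold, and 14 were under 4-fold. Of the 432 chosen in IR29 alone, these counts in Mulai were 116, 193 and 123. The median fold in the cultivar that took no part in the choice was 31.1 for the Mulai list read in IR29 and 8.11 for the IR29 list read in Mulai.

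L-type lateral roots were then compared with nodal roots, to see whether the loci were already raised in the longer laterals. All 99 had a higher value in L-type than in nodal roots of Mulai, and 94 of 99 in IR29, where 4 were lower and 1 had no read in either library. Of the 20316 tested loci, 9685 were higher in L-type than in nodal roots of Mulai and 10008 in IR29. The median fold of L-type over nodal roots was 7.30 in Mulai and 8.51 in IR29 on the scale of value + 1. When values under 3 reads were raised to 3 reads, the medians were 7.59 and 7.11. Nodal reads numbered 3 or fewer for 9 of the loci in Mulai and for 32 in IR29, and single folds against these are imprecise. The nodal libraries were used in choosing the loci for low values there, so the L-type over nodal folds are not independent of the choice.

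At least 4-fold higher in L-type than in nodal roots of both cultivars were 61 of the 99 loci (61.6%), against 1.38% of all 20316 tested loci. Among the 8506 loci with an S-type value of at least 100 in both cultivars, which include the 99, the share was 1.92%. In Mulai alone 83 loci reached 4-fold, against 3.42% of tested loci and 3.67% of those with sufficient S-type values, and in IR29 alone 71, against 4.79% and 4.69%. At 2-fold the count in both cultivars was 84 of 99 loci, against 6.12% and 8.46%, made of 95 in Mulai (11.6% and 13.6%) and 87 in IR29 (17.9% and 19.4%). At 16-fold it was 12, against 0.0788% and 0.141%. In the reads themselves, the 95% counting interval of the ratio of L-type to nodal roots lay above 1 for 95 of the 99 loci in Mulai and for 86 in IR29, against 26.5% and 31.6% of tested loci. In both cultivars it did so for 84, against 15%. With the nodal floor of 3 reads, 59 loci were at least 4-fold higher in both cultivars.

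In the model of all 6 libraries, 10 of the 99 loci rose from nodal to L-type roots (limma on log2(value + 1), adjusted p under 0.05 over 20316 loci, with 2 libraries per root type). Across all tested loci 10 passed in this direction (0.0492%), and these were the same 10 loci. In other fits the set held part of the calls, 23 of 47 with a pseudocount of 5 and 36 of 85 with no filter on low values. The rule shares its nodal libraries with this contrast, and both S-type libraries enter its estimate of the spread. The fitted log2 changes of these 10 loci ran from 3.23 to 6.35 with standard errors of 0.27 to 0.47, and their adjusted p-values from 0.0263 to 0.0361. At an unadjusted p under 0.05 there were 89 of 99 loci, all higher, against 19.2% of tested loci in either direction. edgeR's quasi-likelihood test called 0 loci, with 91 of the 99 at an unadjusted p under 0.05 against 18.1% of all loci. DESeq2 called 80 of the 99 loci higher, against 3.36% of all loci. The limma count was 0 when Mulai nodal, IR29 nodal or IR29 L-type was left out, 43 (of 269 calls among all loci) when Mulai L-type was, 56 (of 368) when Mulai S-type was and 64 (of 391) when IR29 S-type was. The set of called loci therefore depends on the test and on single libraries, while the fitted change was above 0 for all 99 loci in the fit to all libraries.

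**Figure D3:**
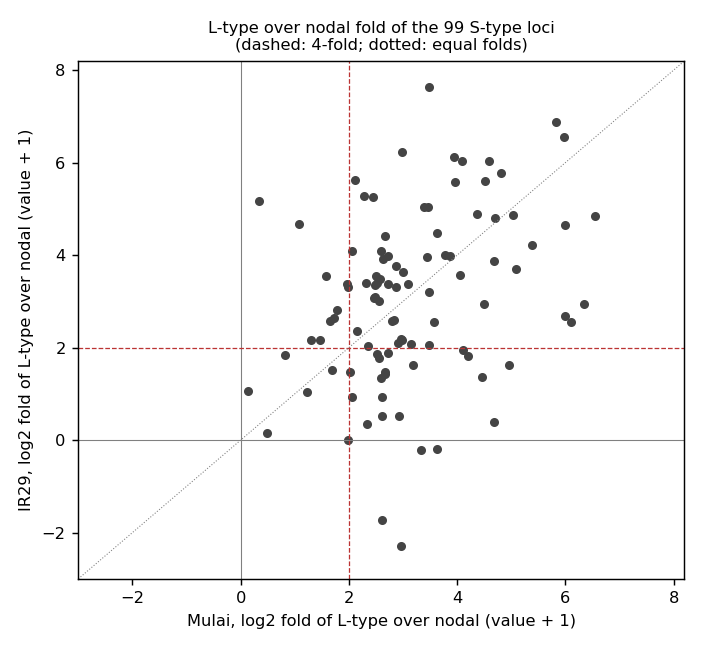
Log2 fold of L-type over nodal roots (value + 1) in Mulai (x axis) and IR29 (y axis), 1 point per locus, 99 in all. 61 points lie past the dashed 4-fold lines in both cultivars, and 4 points lie below 0 in IR29 but none in Mulai.

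The strongest L-type levels relative to nodal roots were found in XLOC_020689 and XLOC_035918, which had the highest smaller fold of both cultivars. XLOC_020689 had scaled counts of 25.2, 1492 and 4073 in Mulai nodal, L-type and S-type roots and of 2.31, 388 and 1502 in IR29. L-type and S-type values lay far above the nodal value in each cultivar. The ratio of L-type to nodal roots was 59.1 in Mulai (43.5 to 82.3, 95% counting interval) and 168 in IR29 (46.2 to 1394), where the nodal value rested on 2 reads. The fitted log2 change was 6.35 ± 0.41 (SE, limma adjusted p = 0.0263; edgeR 0.0541).

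XLOC_035918 was about as high in L-type as in S-type roots of IR29, and higher in L-type than in S-type roots of Mulai. Its scaled counts were 1.80, 176 and 105 in Mulai nodal, L-type and S-type roots and 5.76, 637 and 692 in IR29. The ratio of L-type to nodal roots was 97.7 in Mulai (32.96 to 478, 3 nodal reads) and 111 in IR29 (47.1 to 342, 5 nodal reads). The fitted log2 change was 6.27 ± 0.47 (SE, limma adjusted p = 0.0263; edgeR 0.0502). The L-type to S-type ratio was 1.68 in Mulai (1.33 to 2.12) and 0.921 in IR29 (0.812 to 1.04), and between these root types the fitted change was 0.31 ± 0.47 (SE, limma adjusted p = 0.769).

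At the other end, XLOC_016198 and XLOC_018374 had the lowest summed L-type values of the 99. XLOC_016198 had scaled counts of 1.20, 7.70 and 114 in Mulai nodal, L-type and S-type roots, and of 0, 0 and 200.01 in IR29. These were 2, 9 and 128 reads in Mulai, and 133 reads in the IR29 S-type library. In IR29 L-type roots a count of 0 allows up to 3 reads as a one-sided limit, and the two-sided 95% counting interval of the L-type to S-type ratio reached up to 0.0219. XLOC_018374 had 1.20, 11.97 and 181 in Mulai and 0, 7.03 and 341 in IR29. Its L-type to S-type ratio was 0.0663 in Mulai (0.0356 to 0.114) and 0.0206 in IR29 (0.00748 to 0.0455). Neither locus passed between L-type and nodal roots (limma adjusted p = 0.639 and 0.129).

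Compared with S-type roots, L-type roots had lower values for nearly all of the loci. The value was lower in 95 of 99 loci in Mulai and in 98 in IR29, by a median of 5.14-fold and 7.36-fold. At least 2-fold lower in both cultivars were 80 of the 99 loci, against 5.61% of tested loci and 7.15% of those with sufficient S-type values. At least 4-fold lower were 53, against 1.2% and 1.42%. Both 2-fold above nodal and 2-fold below S-type roots in both cultivars were 66 of the loci, against 1.17% and 2.01%. The S-type libraries were used in the choice, which favours loci read high there. A value between nodal and S-type roots also needs a gap between them, which the rule fixed for all 99. In limma 0 of the 20316 loci were called lower in L-type roots (smallest adjusted p among the 99 of 0.0508). Among the 99, 84 had an unadjusted p under 0.05, all lower in L-type roots, against 18.7% of tested loci in either direction. edgeR also called 0 loci, with 80 of the 99 at an unadjusted p under 0.05 against 16.9% of all loci. With DESeq2 79 of the 99 were called lower, against 3.29% of all loci. The limma count depended on which library was left out, and each such fit holds 1 library of a root type. In these fits the median fitted log2 change of the members ran from -2.24 (without IR29 S-type) to -2.83 (without Mulai S-type). Over all tested loci it was -0.03 and -0.01 in these fits.

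In a few loci the L-type level was the highest of all root types. In Mulai 4 loci had more in L-type than in S-type roots, with ratios of 1.37 to 1.68 and counting intervals above 1. For 3 of them the order was turned in IR29, where the ratio lay between 0.0835 and 0.369 with intervals below 1, and the fourth was XLOC_035918. In IR29 1 other locus was higher in L-type than in S-type roots, with 767 against 638 (ratio 1.20, 1.06 to 1.36). In Mulai this locus had 525.9 in L-type and 2240.04 in S-type roots.

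The place of the L-type level between both ends was expressed on the log2 scale, with 0 for the nodal and 1 for the S-type level of the same cultivar. The median place was 0.56 in Mulai and 0.50 in IR29, that is near the middle of the log scale. The order of the cultivars was not stable, since among the 49 loci with a fold of at least 32 the medians were 0.53 and 0.56. The lower and upper quartiles were 0.45 and 0.70 in Mulai, and 0.35 and 0.64 in IR29. Places between 0.25 and 0.75 were taken by 76 loci in Mulai and 70 in IR29, and 58 of the 99 loci lay in this range in both cultivars. Places over 0.75, close to the S-type level, were found for 19 loci in Mulai and 15 in IR29, with 8 in both. Places under 0.25, close to the nodal level, were found for 4 loci in Mulai and 14 in IR29, with 2 in both. By counting intervals, 75 of the 99 loci were above the nodal and below the S-type value in L-type roots of both cultivars, against 5.08% of tested loci. Such a place needs an S-type value above the nodal one, which the rule fixed for all 99 but not for tested loci. The gap between these shares is therefore not independent of the choice, and how much of it the choice set was not tested.

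**Figure D4:**
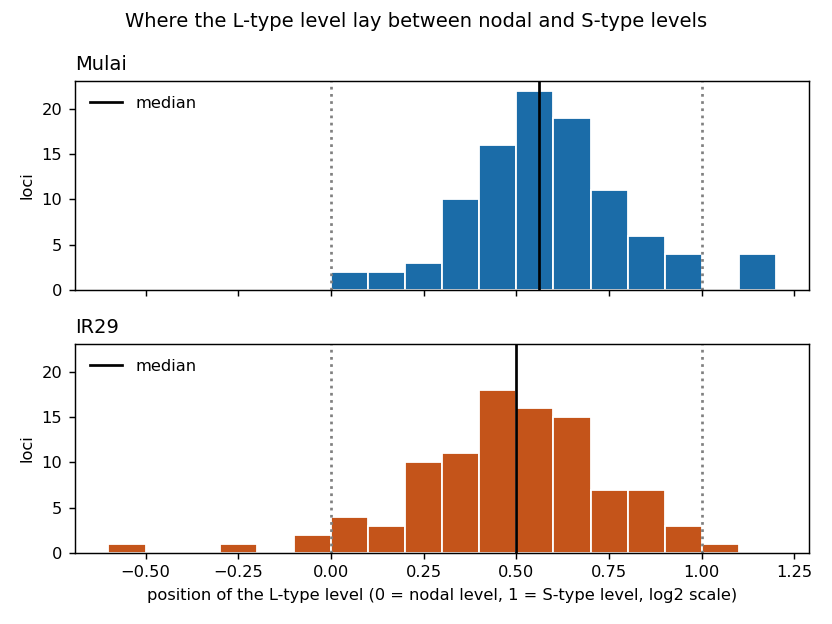
Place of the L-type level between the nodal (0) and the S-type (1) level on the log2 scale (x axis), as the number of loci per bin of 99 (y axis), for Mulai (top) and IR29 (bottom). The black line marks the median, 0.56 in Mulai and 0.50 in IR29, and the IR29 loci spread further towards and below 0.

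The place of a single locus carried over only in part from one cultivar to the other. Across the 99 loci the places correlated at r = 0.30 (rho = 0.29) and the L-type over nodal folds at r = 0.33 (rho = 0.31). The folds of the cultivars come from separate libraries. Over the 8506 loci with sufficient S-type values the corresponding fold correlation was r = 0.60 (rho = 0.60), a range of loci that was not narrowed by a fold. L-type levels themselves correlated at r = 0.65 and S-type levels at r = 0.70 across the 99 loci. These coefficients describe loci of shared libraries and carry no p-value.

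A group of 10 loci was raised at least 4-fold in L-type over nodal roots of Mulai but less than 2-fold in IR29 (10.1%, against 1.19% of tested loci and 0.788% of those with sufficient S-type values). The opposite pattern was found for 1 locus (1.98% and 0.999%). Of the 20316 tested loci, 694 reached 4-fold in Mulai and 974 in IR29. Most loci behind these shares could therefore show neither pattern. Of loci at least 4-fold higher in L-type than in nodal roots of Mulai, the first pattern held for 10 of 83 members. It held for 241 of 694 such tested loci and for 67 of 312 with sufficient S-type values, both larger shares. The opposite pattern held for 1 of 71 members raised 4-fold in IR29, against 402 of 974 and 85 of 399. Changes of at least 2-fold upwards in Mulai and downwards in IR29 were found for 2 loci (1.16% and 0.658%). The limits of 4-fold and 2-fold were set after the values were seen. In these 10 loci folds lay between 4.15 and 25.7 in Mulai, and between 0.206 and 1.91 in IR29. In 7 of the 10 the S-type value differed less than 2-fold between the cultivars. The locus with the largest L-type difference had scaled counts of 24.0, 252 and 1859 in Mulai nodal, L-type and S-type roots and of 6.92, 5.86 and 1750.4 in IR29. Its L-type value was thus far above the nodal value in Mulai and at the nodal level in IR29, while its S-type values were alike. Another locus had 19.8, 256 and 416 in Mulai and 15.0, 12.9 and 1011 in IR29. Yet another had 54.7, 420.7 and 954 in Mulai and 30.0, 43.3 and 753 in IR29. Each of these IR29 values rests on the 1 IR29 L-type library that stood apart on the third principal component. The part of that library in the pattern was not tested, and with 1 library per cultivar and root type the difference has no test.

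IR29 was also compared with Mulai within each root type. Of the 99 loci, 37 were lower by 2-fold or more in IR29 L-type roots and 21 higher, against 25.8% and 15% of tested loci. Among the 8506 loci with sufficient S-type values these shares were 16.4% and 8.74%. In S-type roots 18 were lower and 26 higher by this measure, against 14% and 14.7% of tested loci, and 3.28% and 8.31% of those with sufficient S-type values. In nodal roots 31 were lower and 15 higher, against 13.4% and 7.64%, and 5.16% and 2.81%. On the log2 scale the median fold (IR29 over Mulai) was -0.55 in L-type, 0.31 in S-type and -0.43 in nodal roots, against -0.05, -0.01 and -0.03 over tested loci. Each of these comparisons sets 1 library against 1 library and has no replicate check. The rule itself required S-type reads in both cultivars, which kept out loci read in only 1 of them. It also favoured low nodal values, where counting error is larger. The nodal median was 14.4 in Mulai and 10.4 in IR29, against 88.4 and 85.3 over tested loci. The nodal shares are therefore not set against loci of like level.

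The cultivar differences of single loci were set side by side in the separate S-type and L-type libraries. The sign of the log2 fold was the same in both for 60.6% of the 99 loci, close to the 59.6% of tested loci and the 58.1% of the 8506 loci with sufficient S-type values. The log2 folds of IR29 over Mulai in S-type and L-type roots correlated at r = 0.48 (rho = 0.44) across the 99 loci. This was below the r of 0.64 across all tested loci (rho = 0.34) and above the r of 0.16 across the 8506 loci (rho = 0.20). Both S-type and L-type values of 13 loci were lower by 2-fold or more in IR29 (8.77% of tested and 1.6% of the 8506 loci) and 13 at least 2-fold higher (5.92% and 1.55%). In nodal roots too, 8 loci were lower (5.91% and 0.47%) and 7 higher (3.81% and 0.576%) by this measure in all 3 root types. In 8 loci S-type roots were at least 2-fold higher and L-type roots at least 2-fold lower in IR29 (3.47% and 2.32%), and in 1 locus the reverse (0.655% and 0.0705%).

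In the model of all 6 libraries, 13 of the 99 loci (13.1%) differed between the cultivars by limma at the same threshold, against 7.38% of tested loci. In IR29 6 were higher (2.86% of tested loci) and 7 lower (4.52%). The rule read the nodal and S-type libraries that enter this model, so the share among the 99 is not independent of the choice. The libraries of a cultivar come from different root types and are not replicates. Cultivar and batch cannot be told apart, as the labels point to separate earlier records for each cultivar. The 6 higher loci differed 2.75-fold to 10.7-fold in the fit. The one with the largest difference had scaled counts of 47.3, 767 and 2430 in IR29 nodal, L-type and S-type roots and of 2.40, 45.3 and 471 in Mulai. Every IR29 value was thus above the Mulai value of the same root type, with a fitted log2 change of 3.41 ± 0.39 (SE, limma adjusted p = 0.004003).

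The 7 lower loci differed 3.37-fold to 41.4-fold in the fit. The largest difference was seen in a locus with 39.1, 316 and 3896 in Mulai and 0, 3.51 and 153 in IR29 (fitted log2 change -5.37 ± 0.41, SE, limma adjusted p = 0.00125). It had no read in IR29 nodal roots, so that the fitted change depends on the added 1. Both named loci with strong L-type levels were among the 13. XLOC_035918 was higher in IR29 (log2 change 1.94 ± 0.38, adjusted p = 0.0338) and XLOC_020689 lower (-2.12 ± 0.34, adjusted p = 0.0143, limma). Of the 10 loci called between L-type and nodal roots, 6 were also called between the cultivars, against 7.38% of tested loci. Both contrasts use the same residual spread of a locus, so these calls are not independent of each other. edgeR called 11 of the 99 loci (5.38% of all loci) and DESeq2 23 (10% of all loci). A limma model without root type called 0 of the 99 loci, while it called 399 higher and 709 lower among all 20316 loci. The limma count also changed with single libraries left out.

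**Figure D5:**
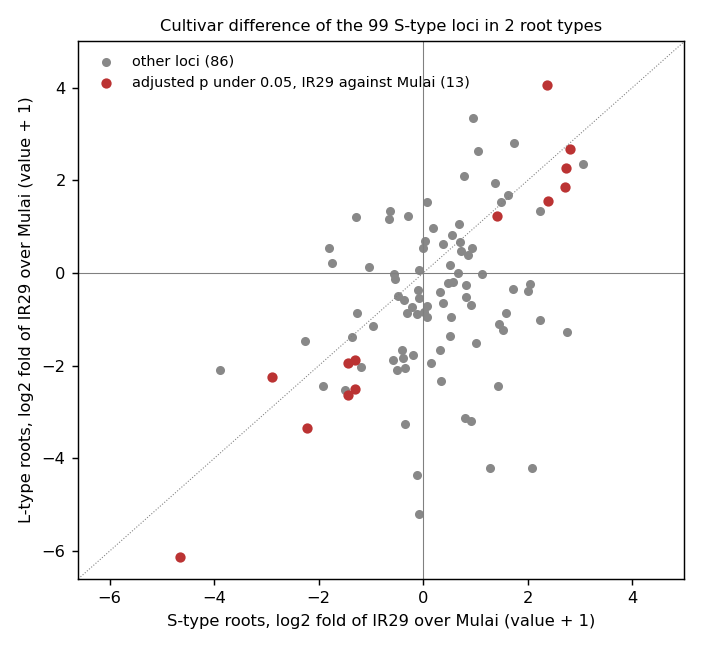
Log2 fold of IR29 over Mulai (value + 1) in S-type roots (x axis) and L-type roots (y axis), 1 point per locus, 99 in all, with the dotted line marking equal folds. The 13 loci called between cultivars (red) lie in the lower left and upper right, 6 higher and 7 lower in IR29, and 37 loci lie at or under a log2 fold of -1 in L-type roots.

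In the contrast that chose the loci, the median fold of S-type over nodal roots was 35.4 in Mulai and 61.8 in IR29, by description. The limma count there, 99 of 99 loci (10.5% of tested loci), was set by the rule, and nothing is read from it. It was lower when the IR29 nodal library was left out.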

How the data were processed

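Messenger RNA of rice roots was sequenced in strand-specific libraries with an insert size of 200 bp, per the labels' protocols. The submitters' processing notes name the genome build IRGSP-1.0 and, as tools, Cuffdiff 2.2.1, Cufflinks 2.2.1, TopHat2 2.0.11, Bowtie and Trimmomatic 0.32. How reads with more than 1 alignment were counted is not given in the sources, and reads shared by similar or overlapping loci may be split between them. The authors deposited a signal for each locus, its fragment count times 1 factor per library. In every library 100% of values above 0 were whole multiples of 1 step (tolerance 0.1 of a read), from 0.601 units in Mulai nodal to 1.50 in IR29 S-type, and division gave whole reads. The 24 other value columns were not used. Of 38042 identifiers 0 matched the 39387 rows of the available RefSeq gene table.

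The loci and tests were chosen with earlier results of these data known. The model (limma 3.58.1, R 4.3.3) used log2(value + 1), an additive design of cultivar and root type, a variance trend and Benjamini-Hochberg adjustment over 20316 loci, those reaching 10 in 2 or more libraries. It left 2 residual degrees of freedom. With 1 library per cultivar and root type, the residual spread mixes noise, which may be technical, with differences between the cultivars in their root type changes. Loci whose changes differ between the cultivars thus tend to get larger standard errors. That spread among these 6 libraries is all that the p-values measure, and no spread of replicates enters it. edgeR 4.0.16 and DESeq2 1.42.0 on recovered reads were alternatives. Ratio intervals are exact 95% intervals on reads of 2 libraries and cover counting error only. Loci given by identifier are the 2 with the highest smaller L-type over nodal fold and the 2 with the lowest summed L-type value. Others are given by rank or chosen after their values were seen.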

Additional observations from a re-analysis of the deposited data

Results flagged for a closer look

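In 1 of the 99 loci L-type roots were higher than nodal roots in Mulai but lower in IR29, each by more than 2-fold. Its log2 fold of L-type over nodal roots (value + 1) was 2.97 in Mulai, from 14 to 85 reads, and -2.28 in IR29, from 33 to 6 reads. In S-type roots it had scaled counts of 416 in Mulai and 780 in IR29. Counting also a locus with 3 or fewer reads in both IR29 libraries, 2 of the 99 loci showed this opposition, against 1.16% of tested loci and 0.658% of those with sufficient S-type values. The difference was not tested, since each value comes from 1 library, and that of IR29 L-type roots stood apart from the others.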

How the results depend on the processing

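Of 108 recomputed values, 76 stayed within 1.5 times the reported count or, for the median place of the L-type level, within the gap between the cultivars, and 32 did not. With a fold of 32 the median places were 0.53 in Mulai and 0.56 in IR29, so that the order of the cultivars turned. The cause was not tested. The set held 254 loci with a fold of 8 and 49 with a fold of 32 in place of 16. Over these sets, 100 (39.4%) and 36 (73.5%) loci were at least 4-fold higher in L-type than nodal roots in both cultivars. In IR29 L-type roots 104 (40.9%) and 19 (38.8%) were at least 2-fold lower, and 43 (16.9%) and 13 (26.5%) at least 2-fold higher. Among the 99 these shares were 61.6%, 37.4% and 21.2%. In these sets 16 and 2 loci had a member with a neighbouring identifier. All of these were set against the 99 as raw counts, so the size of the set alone can place them outside 1.5 times. Loci called between L-type and nodal roots (10) numbered 0 in edgeR, 80 in DESeq2, 23 with a pseudocount of 5, 36 with no filter and 0 without cultivar in the model. Those called lower in L-type than in S-type roots (0) numbered 79 in DESeq2 (of 668 such calls among all loci). They numbered 5 with no filter (of 6) and 1 with a filter at 50 (of 1). Those called between the cultivars (13) numbered 23 in DESeq2 and 0 without root type in the model. The model without root type called 399 higher and 709 lower among all loci. With single libraries left out, the counts ran from 0 to 64 for L-type and nodal roots, from 0 to 34 for L-type and S-type roots, from 8 to 16 for the cultivars and from 44 to 99 for S-type and nodal roots, where the lowest count came without the IR29 nodal library. A lone library in such a fit is assumed to vary like the others. Thinning every library to 3891153 reads gave 98 loci, of which 91 were among the 99. By replicate number, no paired analysis was possible because each group holds 1 library. Root types were compared within cultivars through the cultivar term.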

Other observations

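Among the 99 loci, 4 carried an identifier whose number is next to that of another of the 99, which made 2 pairs (4.04% of the 99 loci). Of all 38042 loci, 0.520% had a number next to one of the 99. The sources used here do not say what the order of the numbers follows, and whether neighbours share reads could not be assessed. These loci were picked out after their values were seen.

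In the first pair the cultivars parted. One locus had scaled counts of 39.1, 316 and 3896 in Mulai nodal, L-type and S-type roots but 0, 3.51 and 153 in IR29. Its neighbour had 36.1, 227 and 1397 in Mulai and 10.4, 170 and 1737 in IR29, so that in L-type and S-type roots the first was far lower in IR29 and the neighbour was not, while in nodal roots both were lower. In the second pair one locus had 34.9, 148 and 864 in Mulai and 64.6, 124 and 1531 in IR29, and its neighbour 10.8, 106 and 5401 in Mulai and 11.5, 37.5 and 1125 in IR29. All 4 had their lowest value in nodal and their highest in S-type roots of both cultivars.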
